A study of Margaritifera margaritifera with 32 samples.

Results

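The site effect in the kidney of the freshwater pearl mussel (Margaritifera margaritifera) in 2010 was the difference between 8 animals taken downstream and 8 taken upstream of a wild dump on the Dronne River. The species is a long-lived river bivalve. These 16 libraries were chosen by their labelled site and year from 32 in the series, and they were fitted on their own. Both groups were wild animals of the same river and year, and the labels give no genotype, treatment or exposure dose. The upstream group held 4 young, 3 middle-aged and 1 old animal, and the downstream group 3 young, 3 middle-aged and 2 old animals. Each library was made from the total kidney RNA of 1 animal with a TruSeq RNA v2 kit. The series concerns trace metal contamination, and the comparison asks whether kidney transcripts differed below the dump.

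The bivalve kidney works on fluid filtered from the blood, takes back solutes and stores metals such as calcium, manganese, zinc and iron in mineral granules inside its cells. Metal-binding proteins, antioxidant enzymes, chaperones and the ubiquitin system are the usual places to look for a response to metals. Haemocytes, the immune cells of the blood, move through bivalve tissues and carry immune receptors, lysozymes and proteins that start or stop cell death. Transcripts were counted on assembled contigs, and a contig's name states a best match, often to a vertebrate, fly or mollusc protein, and not a tested identity. In a name such as Odc.1.6, the ending marks the first of 6 contigs under that name. Such contigs may share reads, and the rule for a read that fits more than 1 contig is not given in the sources used here.

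Upstream libraries held 64.7 to 95.1 M counts and downstream libraries 69.0 to 190 M. Levels are in CPM, relative to the library size after TMM adjustment, a method that balances libraries on the bulk of contigs. Of the 51392 contigs, 50891 passed the filter on low counts, and they varied between animals of a group with a common biological coefficient of variation of 48.1%. Animals did not sort by site: library correlations were 0.739 to 0.973 within upstream, 0.681 to 0.969 within downstream and 0.683 to 0.967 between the sites. Upstream animals 6 and 8 and downstream animals 4 and 5 lay apart from the other 12 on the first principal component, which held 41.6% of the variance. Names of kidney-type filtration and uptake proteins had counts in every animal, with cubilin (CUBN) at 2.16 to 12.1 CPM. The uptake protein name LRP2 varied far more, from 0.147 to 44.9 CPM upstream and from 0.0616 to 68.6 CPM downstream. The nephrin name nphs1, a filtration barrier protein in vertebrates, had 2.44 CPM upstream and 3.63 CPM downstream (edgeR adjusted p = 0.0651). Each sequencing lane held 2 animals of each site. Each site had its own index sequences, so an effect of the index cannot be told apart from that of the site.

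Downstream, 1127 contigs rose and 360 fell, by edgeR's quasi-likelihood test at a Benjamini-Hochberg adjusted p under 0.05. Together these 1487 contigs were 2.92% of those tested, with 2.21% higher and 0.707% lower. The changes were small: the median of the contigs that rose was a log2 difference of 0.72 (1.65-fold), and that of the contigs that fell was -0.56 (1.47-fold). Of the higher contigs 199 changed by more than 2-fold and 7 by more than 4-fold, and of the lower ones 19 changed by more than 2-fold and 0 by more than 4-fold. The 2 groups of 8 animals did not overlap for 604 contigs, 1.19% of those tested, among them 321 of the higher and 113 of the lower contigs. The higher contigs were the less abundant, with a median level of 4.12 CPM against 14.1 CPM for the lower ones. The count depended on single animals: it was 310 without upstream animal 2 and 4283 without downstream animal 5. With age class and lane both in the fit 15 contigs were called, all of them higher, and in 1 fit of all 32 libraries 84 were called. In whole tissue, fewer cells of a type and less RNA per cell cannot be told apart.

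**Figure D1:**
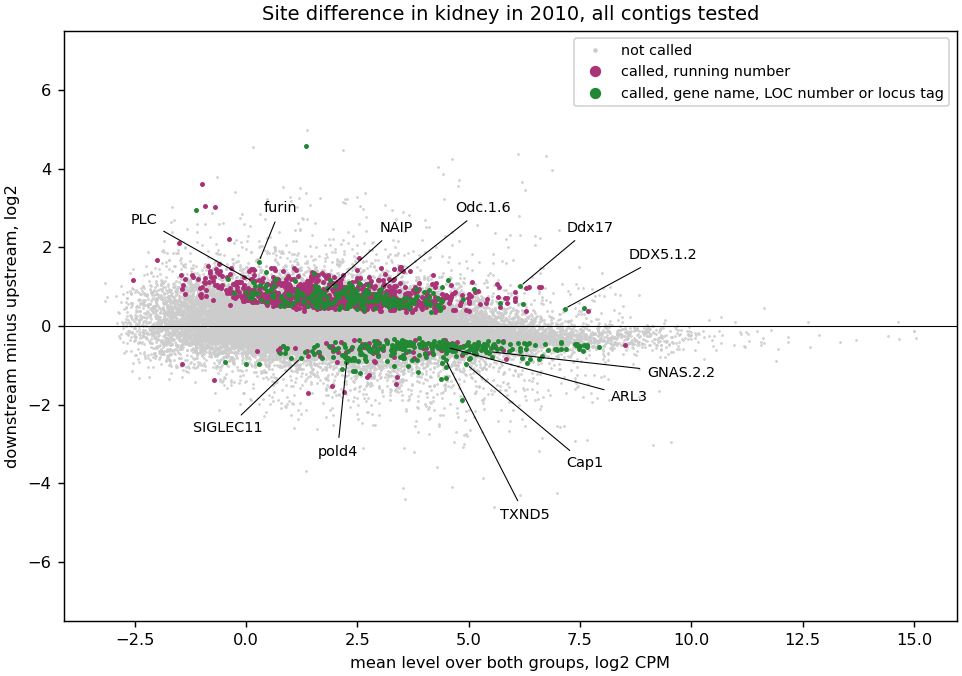
Log2 difference downstream minus upstream in 2010 (vertical axis) against the mean level in log2 CPM (horizontal axis) for the 50891 contigs tested. Called contigs are coloured by the kind of name they carry, and the called contigs on running numbers (magenta) lie mostly above 0, while those with a gene name, LOC number or locus tag (green) lie on both sides.

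Contigs that carry a gene or protein name made up 30 of the 1487, with 13 higher and 17 lower of 1386 tested. That is 2.16% of the named contigs, against 2.92% over all contigs. All 30 had the same sign in each of the 4 lanes. The lanes split the same 16 libraries that gave the calls, so this is not a separate test. The groups did not overlap for 7 of the 30. They did not overlap for 28.5% of all higher and 31.4% of all lower contigs called, and for 1.19% of those tested. Their differences ran from -0.98 for Cap1 to 1.63 for furin on the log2 scale. None of the 30 changed sign under any alternative or left-out library, but these fits reuse the libraries that gave the calls. However, scaling on contigs with a name or locus number, here called the named-contig scaling, moved the median of all contigs up by 0.22. Under it 61 named contigs were higher and 5 lower, the latter including SYB.2.2, GNAS.2.2, TXND5 and pold4. The median difference of all named contigs was -0.20, and 0.03 under the named-contig scaling. That scaling balances libraries on the contigs with a name or locus number, so it centres them by construction. The list medians given under it below are thus not a separate test. PLC, NAIP, ARL3 and SYB.2.2 were called with each library left out in turn, and the others lost the call without at least 1 library. With age class and lane both in the fit, 0 of the 30 were called, and in 1 fit of all 32 libraries also 0. These fits ended the calls of PLC, NAIP, ARL3 and SYB.2.2 too.

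**Figure D2:**
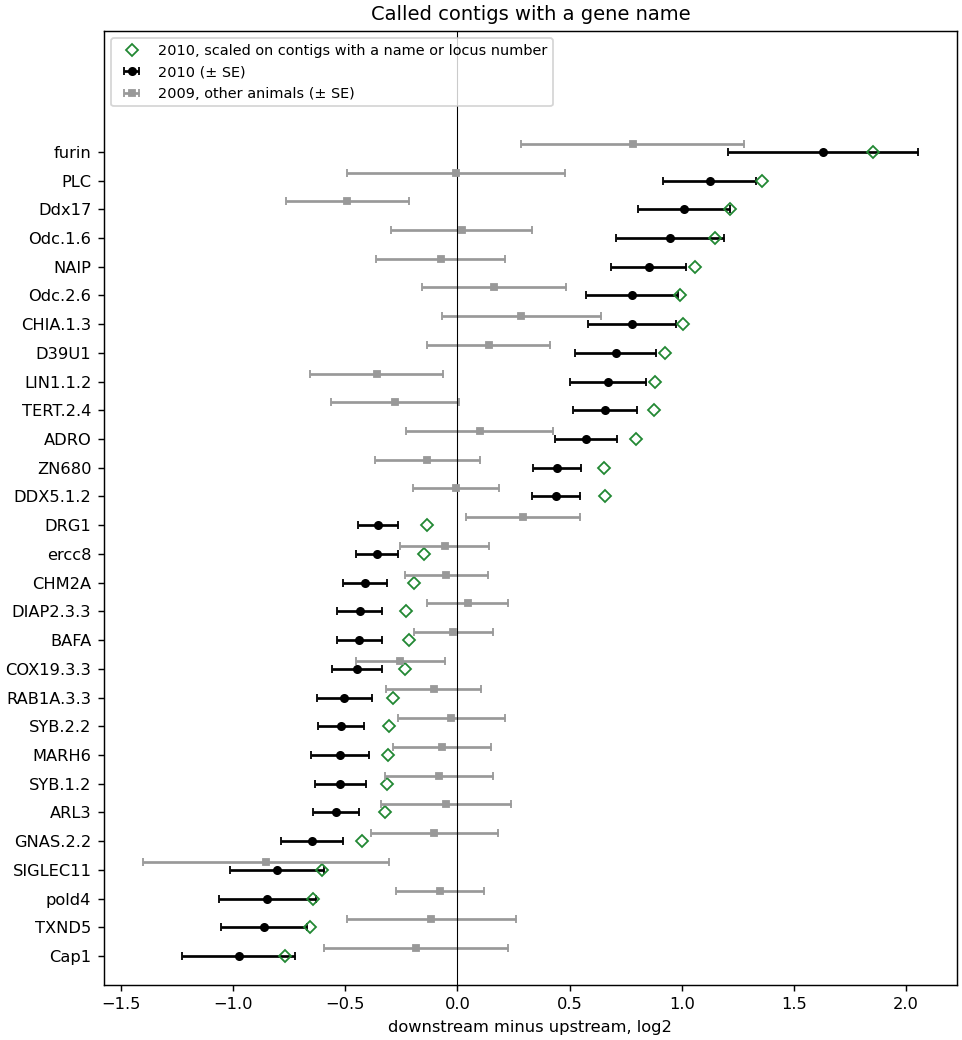
Log2 difference downstream minus upstream for the called contigs with a gene name that are described here. Black points with bars are the 2010 animals (± SE, 8 per group), grey squares with bars the animals of 2009 (± SE, 8 per group), and open green diamonds the 2010 difference after scaling on contigs with a name or locus number. Every diamond is on the same side of 0 as its black point, and every grey bar but those of furin, Ddx17, LIN1.1.2, SIGLEC11, COX19.3.3 and DRG1 crosses 0. The 2009 values are from the fit without an age term.

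RNA helicases led the named contigs that rose at high levels. Ddx17 is named for a DEAD-box helicase that acts in splicing and in the handling of small RNAs. Its level was 28.8 CPM in the lowest upstream animal, 48.8 at the median and 58.2 in the highest, and 42.2, 98.0 and 130 CPM downstream. Of the 8 downstream animals 7 lay above every upstream animal, and the exception was animal 5, the lowest. The difference was 1.01 ± 0.20 (log2 ± SE, n = 8 per group; edgeR adjusted p = 0.0234), or 2.01-fold. DDX5.1.2, the close relative of Ddx17, had 107, 121 and 137 CPM upstream and 137, 168 and 185 CPM downstream. Its groups met at 137 CPM, and it rose by 0.44 ± 0.11 (adjusted p = 0.0398). The second contig of that name, DDX5.2.2, differed by 0.05 ± 0.11 at 23.5 and 24.4 CPM.

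Among the 31 contigs named for RNA helicases and splicing factors these 2 were the members called, both higher (6.45%, against 2.21% higher over all contigs). In this list 10 estimates were above 0 and 21 below, while 27.6% of all named contigs were above 0. The list's median was -0.17, against -0.01 over all contigs, and it was 0.05 under the named-contig scaling. The splicing factor name u2surp had 5.41 ± 1.89 CPM upstream and 10.4 ± 3.62 CPM downstream (SD), a difference of 0.94 (adjusted p = 0.0726). CWC27, a splicing-associated isomerase, had 14.9 ± 1.71 and 9.83 ± 2.68 CPM, a difference of -0.60 (adjusted p = 0.0753). TRMT44.2.2, named for a transfer RNA methyltransferase, had 9.77 ± 3.32 and 19.3 ± 6.76 CPM (adjusted p = 0.0654). Downstream animal 5 was the lowest of its group for Ddx17, u2surp and TRMT44.2.2, at 42.2, 2.88 and 5.71 CPM. It was also the animal whose removal raised the count of called contigs most.

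**Figure D3:**
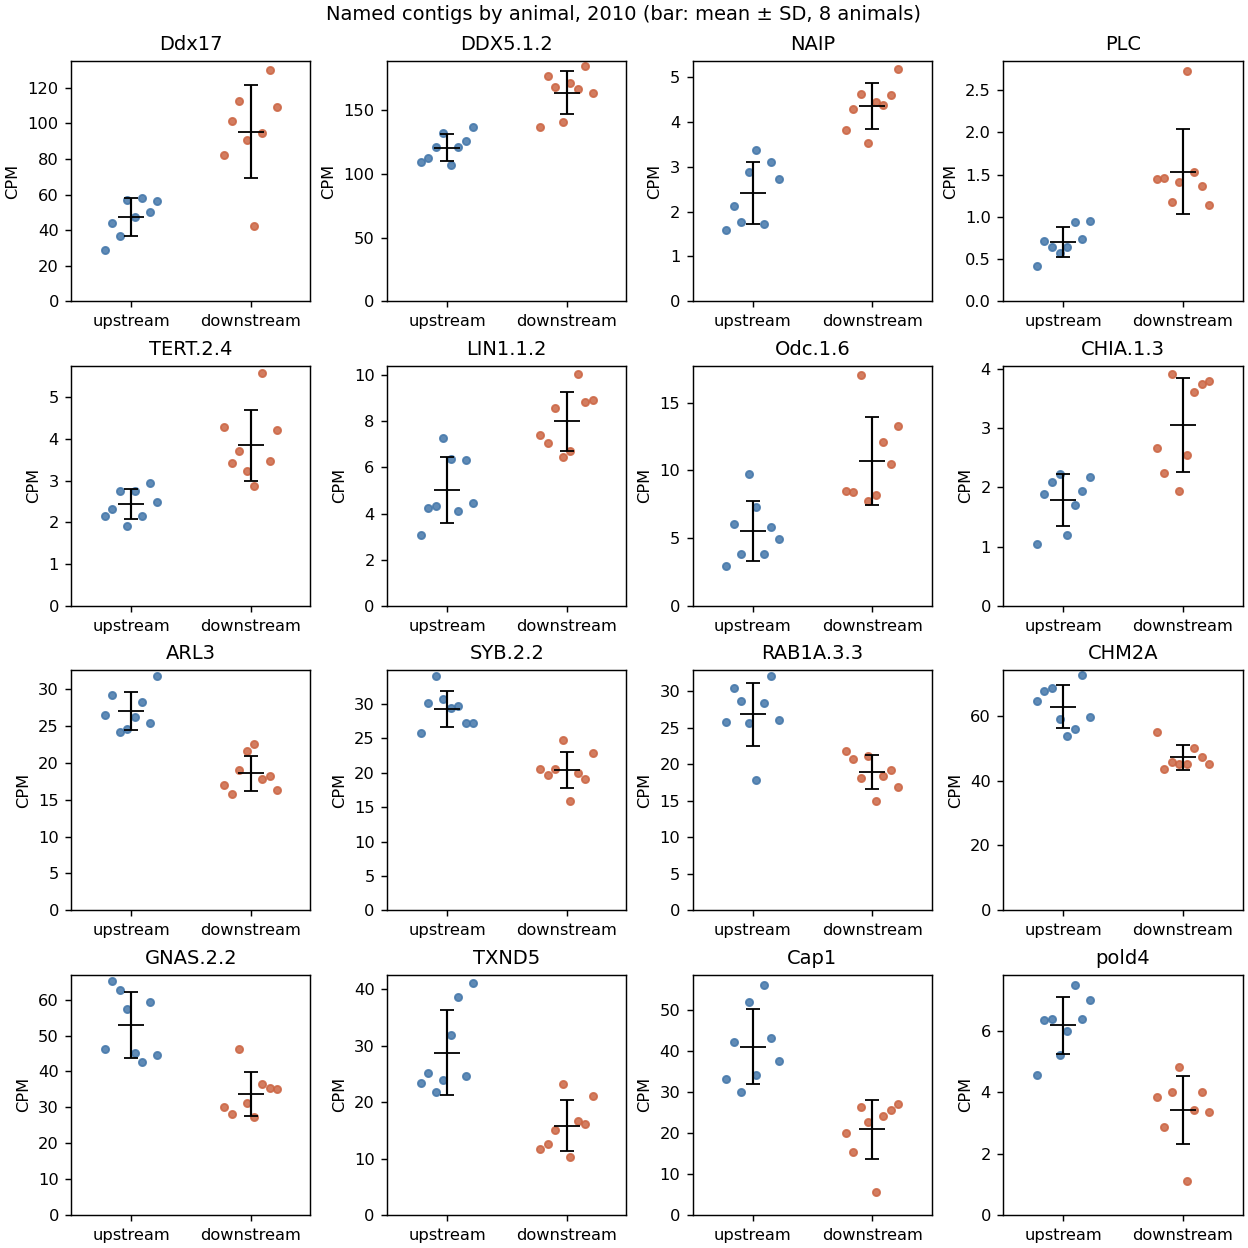
Level in CPM of 16 named contigs in each animal of 2010, with 8 upstream animals in blue, 8 downstream animals in red and bars for the mean ± SD. In the upper 8 panels downstream animals lie higher and in the lower 8 panels lower, and the single downstream points far from their group for Ddx17, PLC and Cap1 are animal 5.

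Of the contigs named for inhibitors of apoptosis, 2 changed, in opposite directions. NAIP, named for a vertebrate sensor of bacterial proteins that carries the inhibitor domains, had 1.59, 2.43 and 3.37 CPM upstream (lowest, median, highest) and 3.52, 4.41 and 5.18 CPM downstream. Every downstream animal lay above every upstream animal. It rose by 0.85 ± 0.17 (adjusted p = 0.0200), or 1.80-fold. DIAP2.3.3, named for a fly inhibitor of apoptosis that also acts in immune signalling, had 11.7, 14.6 and 16.7 CPM upstream and 8.69, 11.0 and 12.7 CPM downstream. Of the downstream animals 6 lay below every upstream one, and it fell by 0.44 ± 0.10 on the log2 scale (adjusted p = 0.0331). Another contig of that name, DIAP2.1.3, had a difference of 0.34 (adjusted p = 0.222).

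Of the 24 contigs in the list of inhibitors of apoptosis, NAIP and DIAP2.3.3 were the 2 called (8.33%, against 2.92% over all contigs), and the median difference was -0.27, or -0.08 under the named-contig scaling. Xiap, a direct caspase inhibitor in vertebrates, had 3.96 ± 0.933 CPM upstream and 5.61 ± 1.21 CPM downstream (adjusted p = 0.0898). Of the 35 contigs for caspases and death signalling edgeR called 0, with 3 higher and 3 lower at an unadjusted p under 0.05. The DESeq2 count was 0, and that of limma-voom 3 higher and 10 lower. Over all 50891 contigs tested, 6625 were higher and 5654 lower at an unadjusted p under 0.05 by edgeR. Limma-voom called 7961 higher and 7644 lower over all contigs, and DESeq2 3291 higher and 1898 lower.

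Polyamine synthesis was represented by ornithine decarboxylase, its rate-limiting enzyme, under 6 contigs. Odc.1.6 had 2.92, 5.39 and 9.78 CPM upstream and 7.76, 9.48 and 17.0 CPM downstream. The groups overlapped, with 4 downstream animals above the highest upstream animal, and it rose by 0.95 ± 0.24 (adjusted p = 0.0450). Odc.2.6 rose by 0.78 ± 0.20 (adjusted p = 0.0497), from 2.11 to 3.62 CPM. The abundant contigs of the name did not pass: Odc.5.6 had 216 and 247 CPM and Odc.6.6 had 506 and 518 CPM, with differences of 0.19 and 0.04, the latter flipping sign under limma-voom and without the 4 animals that lay apart. In the list of amino acid metabolism these 2 Odc contigs were the called members of 29 (6.90%, against 2.92% over all contigs), and the median difference was -0.19, or 0.05 under the named-contig scaling.

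Several further contigs rose at low levels. PLC, a name used for more than 1 kind of protein, had 0.413, 0.684 and 0.952 CPM upstream and 1.14, 1.43 and 2.73 CPM downstream. The groups did not overlap, and it rose by 1.12 ± 0.21 (adjusted p = 0.0179) on 397 upstream and 1298 downstream reads. The furin contig, named for a protease that activates precursor proteins in the secretory path, had 0.164, 0.612 and 0.978 CPM upstream and 0.471, 1.52 and 4.91 CPM downstream. It rose by 1.63 ± 0.42 (adjusted p = 0.0485), with 6 downstream animals above every upstream one and animal 5 highest. The separate contig written FURIN had 2.86 and 3.72 CPM, a difference of 0.38 (adjusted p = 0.439). ADRO, named for the mitochondrial reductase that feeds electrons to steroid-forming P450 enzymes, rose by 0.57 ± 0.14 from 2.40 to 3.57 CPM (adjusted p = 0.0374). D39U1, from 0.839 to 1.37 CPM, rose by 0.71 ± 0.18 (adjusted p = 0.0470).

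Of 3 chitinase contigs 1 rose. CHIA.1.3, named for an acidic chitinase, had 1.05, 1.91 and 2.22 CPM upstream and 1.94, 3.15 and 3.92 CPM downstream, with 7 downstream animals above every upstream one. It rose by 0.78 ± 0.20 (adjusted p = 0.0434), while CHIA.2.3, at 13.2 and 10.3 CPM, had a difference of -0.36 (adjusted p = 0.222). LIN1.1.2, named for a LINE-1 mobile element protein, rose by 0.67 ± 0.17 from 5.02 to 8.00 CPM (adjusted p = 0.0444). LIN1.1.2 was the called member of 21 contigs named for mobile elements and viruses (4.76%, against 2.92% over all contigs). In this list 16 estimates were above 0, while 48.9% of all contigs and 27.6% of the named ones were above 0. The list's median was 0.13, or 0.33 under the named-contig scaling. The transposase-derived names pogk.6.8, pogk.5.8 and pogk.1.8 had differences of 0.80, 0.61 and 0.45, with adjusted p of 0.0536, 0.0707 and 0.0729.

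TERT.2.4, named for the reverse transcriptase of telomerase, had 1.93, 2.40 and 2.94 CPM upstream and 2.87, 3.59 and 5.58 CPM downstream. All downstream animals but 1 lay above every upstream animal, and it rose by 0.66 ± 0.14 (adjusted p = 0.0279). The other 3 contigs of the name were not called. ZN680, a zinc finger name, rose by 0.44 ± 0.11 from 4.76 to 6.47 CPM (adjusted p = 0.0373). It was the called member of 85 zinc finger contigs (1.18%, against 2.92% over all contigs), whose median was -0.18, or 0.04 under the named-contig scaling. ZN677 had 8.95 ± 1.44 and 6.72 ± 0.969 CPM (adjusted p = 0.0729).

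Small GTPases and vesicle proteins were among the named contigs that fell. ARL3, named for a small GTPase that releases cargo in cilia, had 24.2, 26.3 and 31.7 CPM upstream and 15.8, 18.0 and 22.5 CPM downstream. The groups did not overlap, and it fell by 0.54 ± 0.10 on the log2 scale (adjusted p = 0.0190), or 1.46-fold. Both contigs of synaptobrevin, the vesicle protein that drives membrane fusion, fell without overlap between the groups. SYB.2.2 had 25.7, 29.5 and 34.0 CPM upstream and 16.0, 20.2 and 24.7 CPM downstream, and it fell by 0.52 ± 0.10 (adjusted p = 0.0203). SYB.1.2 also fell by 0.52, from 27.7 to 19.3 CPM (adjusted p = 0.0278).

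RAB1A.3.3, named for the GTPase of transport from the endoplasmic reticulum to the Golgi, had 17.8, 27.2 and 32.0 CPM upstream and 15.0, 18.8 and 21.8 CPM downstream. It fell by 0.51 ± 0.12 (adjusted p = 0.0383), although upstream animal 5 lay among the downstream values. The most abundant contig of the name, RAB1A.1.3, had 169 and 111 CPM, a difference of -0.60 (adjusted p = 0.0783). CHM2A, a subunit of the ESCRT-III complex that cuts membrane necks, had 53.6, 62.1 and 72.5 CPM upstream and 43.5, 45.5 and 55.1 CPM downstream. It fell by 0.41 ± 0.10 (adjusted p = 0.0381), with 7 downstream animals below every upstream one.

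Of 30 contigs for 14-3-3 proteins and small GTPases, 2 were called, ARL3 and RAB1A.3.3, both lower (6.67%, against 0.707% lower over all contigs). In this list 28 of 30 estimates were below 0, while 27.6% of all named contigs were above 0. The list's median was -0.36, against -0.20 over the named contigs. CDC42, a GTPase of the actin skeleton, had 48.0, 55.8 and 63.0 CPM upstream and 34.8, 42.8 and 50.9 CPM downstream (adjusted p = 0.0548). RAB10 had 11.3 ± 2.30 and 6.76 ± 2.29 CPM (adjusted p = 0.0747). The list's median became -0.14 under the named-contig scaling, and there 0 members were called. At an unadjusted p under 0.05 edgeR had 0 members higher and 13 lower. DESeq2 called 0 higher and 10 lower, and limma-voom 0 higher and 18 lower. Over all 50891 contigs tested, 5654 were lower at that unadjusted p, and DESeq2 called 1898 and limma-voom 7644 lower. GNAS.2.2, named for the G protein subunit that stimulates adenylate cyclase, had 42.8, 51.9 and 65.1 CPM upstream and 27.3, 33.2 and 46.2 CPM downstream. It fell by 0.65 ± 0.14 (adjusted p = 0.0265), with 7 downstream animals below every upstream one.

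TXND5, a protein disulfide isomerase that folds secreted proteins, had 21.8, 24.9 and 41.1 CPM upstream and 10.2, 15.7 and 23.2 CPM downstream. It fell by 0.86 ± 0.19 (adjusted p = 0.0305), or 1.82-fold, and the 2 highest upstream values were those of animals 6 and 8. MARH6, a ubiquitin ligase of the endoplasmic reticulum, fell by 0.52 ± 0.13 from 25.5 to 17.7 CPM (adjusted p = 0.0405). Cap1 is the mouse symbol of a cyclase-associated protein that recycles actin. It had 29.9, 39.9 and 56.0 CPM upstream and 5.67, 23.3 and 27.0 CPM downstream. No downstream animal reached an upstream one, and Cap1 fell by 0.98 ± 0.25 (adjusted p = 0.0462). SIGLEC11, a sialic acid lectin name of immune cells, also fell without overlap, by 0.80 ± 0.21 from 3.00 to 1.72 CPM (adjusted p = 0.0484).

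BAFA, the barrier-to-autointegration factor that ties DNA to the nuclear envelope, had 66.2, 81.4 and 85.1 CPM upstream and 52.2, 59.2 and 66.2 CPM downstream. It fell by 0.44 ± 0.10 (adjusted p = 0.0311), with 7 downstream animals below every upstream one. The small DNA polymerase delta subunit pold4 fell by 0.85 ± 0.22 from 6.18 to 3.43 CPM (adjusted p = 0.0450), and it was lowest in downstream animal 5. The transcription-coupled repair factor ercc8 fell by 0.36 ± 0.09 from 6.55 to 5.11 CPM (adjusted p = 0.0460).

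With TERT.2.4 higher and pold4 and ercc8 lower, 3 of 21 contigs of DNA replication and repair were called (14.3%, against 2.92% over all contigs), and their median was -0.09, or 0.12 under the named-contig scaling. The GTP-binding protein DRG1 fell by 0.35 ± 0.09 (edgeR adjusted p = 0.0415), from 12.7 to 9.97 CPM. COX19.3.3, which acts in the assembly of cytochrome oxidase, fell by 0.45 ± 0.11 (adjusted p = 0.0390) from 5.29 to 3.87 CPM.

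Of the 15 contigs for metal handling, COX19.3.3 was the member called (6.67%, against 2.92% over all contigs). In this list 12 estimates were below 0 and 3 above, while 27.6% of all named contigs were above 0. The list's median was -0.31, or -0.09 under the named-contig scaling, where 0 members were called. DESeq2 called 1 member lower and limma-voom 7 lower, against 1898 and 7644 lower of all 50891 contigs tested. Ferritin, the iron store, was the most abundant of the metal handling names. FRIS.1.2 had 5693, 11699 and 15504 CPM upstream and 7462, 8333 and 12489 CPM downstream, a difference of -0.40 ± 0.19 (adjusted p = 0.205). FRIS.2.2 had a difference of -0.51 ± 0.22 (adjusted p = 0.169). The adjusted p of FRIS.1.2 was 0.156 by DESeq2 and 0.0290 by limma-voom, and that of FRIS.2.2 was 0.127 and 0.0184. Of the 8 downstream animals 7 lay below the upstream median for FRIS.1.2 and 8 for FRIS.2.2. The groups overlapped for both contigs.

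Among 28 contigs for superoxide, glutathione and thioredoxin proteins, TXND5 was the called member, or 3.57% against 2.92% over all contigs. Of these 24 had estimates below 0 and 4 above, while 27.6% of all named contigs were above 0. The list's median was -0.34, or -0.11 under the named-contig scaling. DESeq2 called 1 member lower and limma-voom 11 lower, against 1898 and 7644 lower of all 50891 contigs tested. The 3 contigs of copper-zinc superoxide dismutase, which removes superoxide, were not called. SODC.3.3 had 2288 ± 895 and 2054 ± 824 CPM, a difference of -0.16 ± 0.28 (adjusted p = 0.774). SODC.2.3 and SODC.1.3 had differences of 0.23 ± 0.44 and 0.02 ± 0.42 (adjusted p = 0.783 and 0.982). The sign of each of the 3 flipped under at least 1 alternative or left-out library.

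By edgeR's test 0 of 13 chaperone contigs were called, with 3 lower at an unadjusted p under 0.05, while DESeq2 called 2 lower and limma-voom 5 lower. HSP7D, a constitutive Hsp70, had 1010.3 ± 152 and 792 ± 102 CPM (adjusted p = 0.129). Of 25 contigs for ubiquitin and the proteasome 0 were called, with 9 lower at an unadjusted p under 0.05 and a median of -0.27. Under the named-contig scaling the median was -0.04, and 1 member was called higher and 0 lower. For this list DESeq2 called 6 lower and limma-voom 15 lower. Over all 50891 contigs tested, 5654 were lower at an unadjusted p under 0.05 by edgeR. Of those tested DESeq2 called 1898 lower and limma-voom 7644 lower. Polyubiquitin UBB.1.2 had 1317 ± 283 and 867 ± 211 CPM (adjusted p = 0.0811), and UBE2N, a ubiquitin-conjugating enzyme, had 70.5 ± 9.79 and 51.8 ± 8.99 CPM (adjusted p = 0.0674). All 5 cytochrome P450 contigs had estimates below 0, while 27.6% of all named contigs were above 0. The P450 median was -0.43, or -0.20 under the named-contig scaling. Of the 5, 0 were called by edgeR, DESeq2 or limma-voom (0 at an unadjusted p under 0.05 by edgeR). CP3AO, the most abundant, had 61.7 ± 21.2 and 48.4 ± 17.5 CPM (adjusted p = 0.462).

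Over all 31 lists, 9 of 697 contigs rose and 7 fell, 2.30% against 2.92% over all contigs, with a median of -0.18. Lists of abundant housekeeping proteins had 0 called by edgeR. Cytosolic ribosomal proteins had a median of -0.11 over 36 contigs, oxidative phosphorylation -0.16 over 22, and translation factors -0.26 over 9, and under the named-contig scaling these were 0.12, 0.08 and -0.03. At an unadjusted p under 0.05 they had 1, 3 and 4 lower contigs, DESeq2 called 0 in each, and limma-voom 1, 9 and 6 lower. Over all 50891 contigs tested, 6625 were higher and 5654 lower at that unadjusted p, and limma-voom called 7644 lower. The list of solute transport and reabsorption, the work of the kidney, had 0 called of 20, with 1 higher at an unadjusted p under 0.05, and a median of -0.09, or 0.14 under the named-contig scaling. DESeq2 called 1 higher there, and limma-voom 1 higher and 1 lower. NHRF1, which anchors sodium-dependent transporters at the cell surface in vertebrates, had 5.80, 7.46 and 10.6 CPM upstream and 7.09, 11.7 and 18.5 CPM downstream. Of its downstream animals 7 lay above every upstream one, with a difference of 0.64 ± 0.18 (adjusted p = 0.0572).

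Some large differences went with high values in a few animals. All 18 contigs of muscle proteins had estimates below 0, with a median of -0.87, while 27.6% of all named contigs were above 0. Over all 50891 contigs tested, 5654 were lower at an unadjusted p under 0.05 by edgeR. Of the 18 muscle contigs 6 were lower at that p, edgeR and DESeq2 called 0, and limma-voom called 2 lower. Their summed level was 6677 CPM in upstream animal 6 and 5723 CPM in upstream animal 8, against 744 to 1096 CPM in the other upstream animals and 437 to 1897 CPM downstream. The median was -0.15 without the 4 animals that lay apart on the first component, and it ran from -1.08 to -0.43 with single libraries left out. CO4A1, a collagen IV chain, had 61.4, 168 and 667 CPM upstream and 34.3, 86.3 and 141 CPM downstream, a difference of -1.40 (adjusted p = 0.0869). Its difference was -0.65 without the 4 animals that lay apart. The adjusted p was 0.0235 by DESeq2 and 0.265 by limma-voom.

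A complement name behaved likewise. The factor B contig bf, a protease of the alternative pathway, had 1.29, 2.22 and 66.6 CPM upstream and 1.67, 21.2 and 756 CPM downstream, a difference of 4.31 ± 1.50 (adjusted p = 0.105). The adjusted p of bf was 1.3e-05 by DESeq2 and 0.379 by limma-voom. Downstream animals 2 and 4 held 741 and 756 CPM, and the lowest downstream animals lay within the upstream range. Among the 12 contigs of haemocyte and digestive enzymes, CHIA.1.3 was called (8.33%, against 2.92% over all contigs) and the median was 0.71. That median was 0.15 with an age term and 0.32 without the 4 animals that lay apart, and it ran from 0.07 to 0.98 with single libraries left out. The sum of that list was 41.1 to 144 CPM upstream and 36.0 to 209 CPM downstream, and its part in the result for CHIA.1.3 was not tested.

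**Figure D4:**
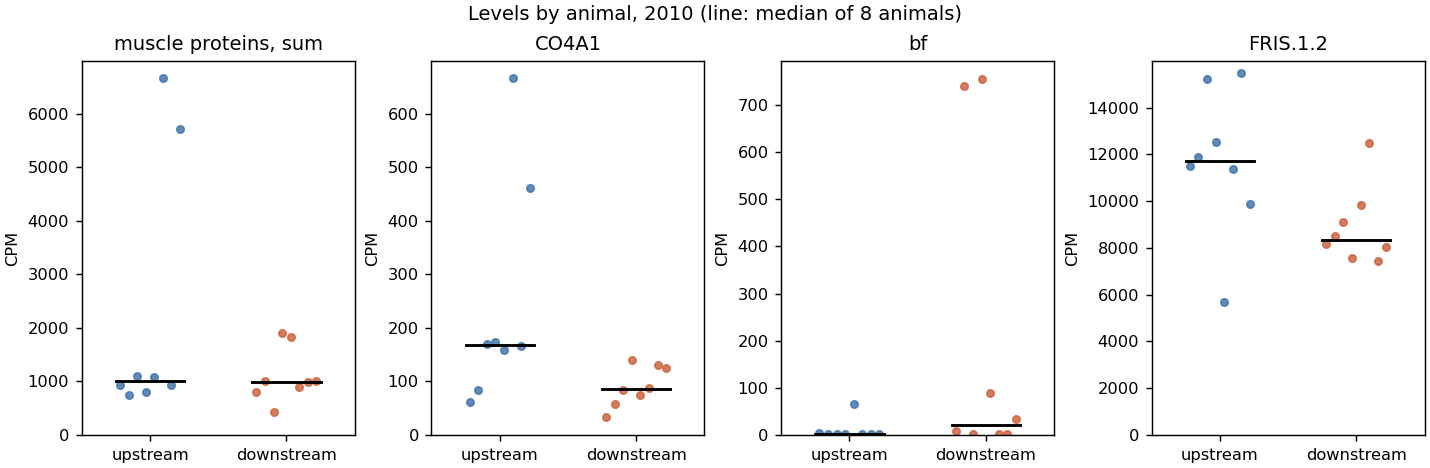
Levels in CPM by animal in 2010 of the summed muscle protein contigs, CO4A1, bf and FRIS.1.2, with 8 upstream animals in blue, 8 downstream animals in red and a line at the median. The high muscle sums are upstream animals 6 and 8, and the high bf values are downstream animals 2 and 4, while the other animals of both sites overlap.

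Most of the contigs that rose carried a running number and no gene or locus name. Such contigs were also most of those tested, 31093 of 50891. Of the 31093, 908 rose (2.92%, against 2.21% over all contigs) and 86 fell (0.277%, against 0.707%). Thus 91.3% of their calls were higher, against 75.8% over all contigs. Contigs with a LOC number had 172 higher and 230 lower of 15524, and those with another locus tag 34 higher and 27 lower of 2888. The shares called in either direction were 2.59% for LOC numbers and 2.11% for other tags, against 2.92% over all contigs. The median difference was 0.11 for running numbers, -0.21 for LOC numbers, -0.20 for gene names and -0.20 for other tags. Running-number contigs also took a larger share of each library downstream. They held 29.3% to 36.9% of the counts upstream (mean 32.0 ± 2.39%, SD, n = 8) and 33.3% to 39.0% downstream (35.4 ± 1.64%). The difference was 3.37 percentage points, with an exact permutation p of 0.00591 (two-sided, 12870 regroupings) and 0.0118 after adjustment over the 2 library measures tested, a test chosen after the values were seen.

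The share was higher downstream in each lane, by 2.20, 3.27, 3.09 and 4.90 points in lanes 1 to 4. It was higher by 3.95 points in young and 3.02 in middle-aged animals, and by 0.23 points between 1 old upstream animal and 2 old downstream animals. The highest upstream and highest downstream shares, 36.9% and 39.0%, were both those of old animals, upstream 5 and downstream 5. The TMM factors were 0.854 to 1.22 upstream and 0.941 to 1.16 downstream (exact permutation p = 0.0250, adjusted p = 0.0250).

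The difference also followed the level of a contig. Among 1019 contigs at 100 CPM or more, 11.3% had estimates above 0, the median was -0.31, and 3 rose and 21 fell. Among 5165 contigs under 1 CPM, 63.4% had estimates above 0, the median was 0.17, and 83 rose and 3 fell. Both kinds of name followed this order: running-number contigs had a median of 0.23 under 1 CPM and -0.24 at 100 CPM or more, and the others -0.05 and -0.33. The split of calls between higher and lower varied with the scaling, and also with the libraries and the fit used. It was 75.8% higher with TMM over all contigs, 77.6% with RLE factors and 90.1% with upper-quartile factors. It was 98.6% with factors from contigs with a name or locus number and 99.4% with total counts. With TMM and single libraries left out, it ran from 66.5% (downstream animal 5) to 92.2% (downstream animal 1). Limma-voom called 7961 higher and 7644 lower, and with age class and lane terms all 15 calls were higher. At 1 to 10 CPM, running-number contigs had a median of 0.12, with 669 higher and 44 lower, and the others -0.15, with 167 higher and 86 lower. In each of the 4 ranges of level the median of the running-number contigs was the higher. The part of either in the calls was not tested.

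**Figure D5:**
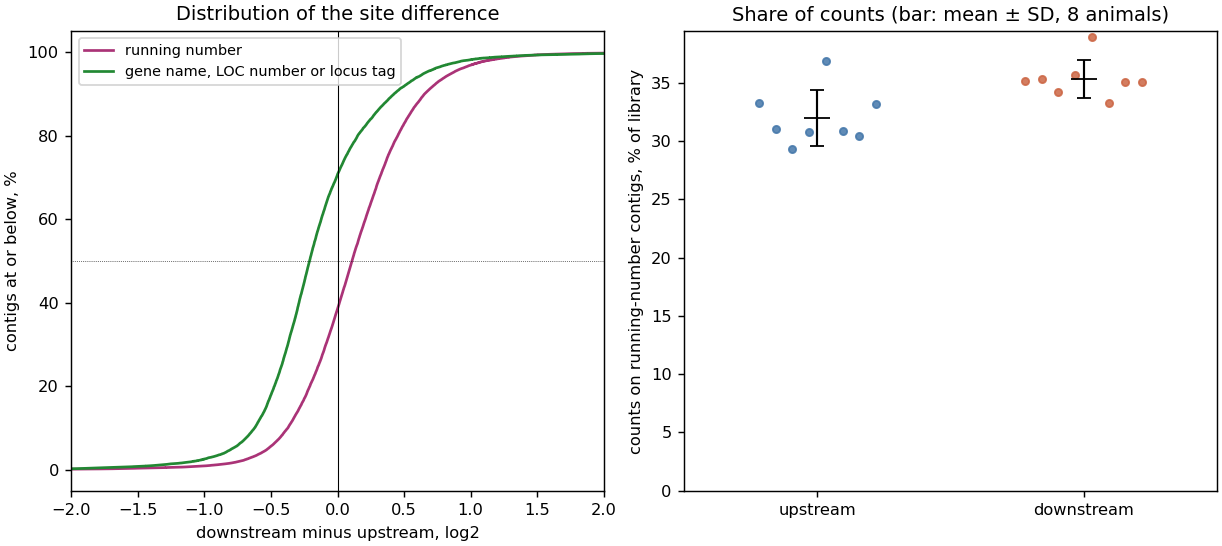
Left, the share of contigs at or below each log2 difference, for running-number contigs and for contigs with a gene name, LOC number or locus tag, with medians of 0.11 and -0.21. Right, the percentage of each library's counts on running-number contigs in 2010, with a point per animal and bars for the mean ± SD of 8 animals: 32.0% upstream and 35.4% downstream.

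The contigs of smallest p lacked a gene name. Contig_04422 had 3.61, 4.89 and 6.85 CPM upstream and 7.58, 12.6 and 15.0 CPM downstream, and it rose by 1.31 ± 0.15 (adjusted p = 0.00392). Contig_16552 had 4.09, 5.56 and 8.72 CPM upstream and 10.3, 16.8 and 19.5 CPM downstream, and it rose by 1.45 ± 0.17 (adjusted p = 0.00392). Of those that fell, LOC106869338.1.2 went from 13.8 to 9.54 CPM, by 0.53 ± 0.09 on the log2 scale (adjusted p = 0.0135). Contig_06884 fell by 0.66 ± 0.11 from 5.15 to 3.26 CPM (adjusted p = 0.0136). None of these 4 had overlapping groups, and all 4 were called with each library left out in turn.

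The animals of 2009, 8 per site, gave the same measure in libraries that the 2010 fit did not use. There 0 of 50830 contigs were called (0%), with 2557 at an unadjusted p under 0.05. Of the contigs that rose in 2010, 35.1% also had estimates above 0 in 2009 (394 of 1123), and of those that fell, 70% had estimates below 0 (252 of 360). Over all 50624 contigs tested in both years 56.4% had the same sign, in the fits without an age term. With an age term in 2009 the shares of called contigs became 19.8% for those that rose and 26.9% for those that fell. The share over all contigs with that term was not computed. In 2009 most downstream animals were old and most upstream animals were not. The age-term estimates of 2009 therefore rest on few animals of the less common age classes, and they are given without a spread.

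For the 13 higher named contigs the largest opposite value was that of Ddx17, at -0.49 ± 0.27 in 2009 without an age term. With an age term in 2009 Ddx17 had -0.04, and the largest opposite value was that of PLC, at -0.70. For ARL3, SYB.2.2 and BAFA the 2009 differences were -0.05 ± 0.29, -0.03 ± 0.24 and -0.02 ± 0.18, and 0.10, 0.35 and -0.01 with an age term. SIGLEC11 had -0.85 ± 0.55 and furin 0.78 ± 0.50, each with the sign of 2010. With an age term in 2009 SIGLEC11 had -0.36 and furin -0.38, so furin then had the opposite sign. The difference between the site effects of the 2 years was tested over all 32 libraries, which include the 16 of 2010, and 226 of 51264 contigs (0.441%) were called. Of the 1127 contigs that rose in 2010 these included 145, and of the 360 that fell 0.

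Of the 1386 named contigs tested in 2010, the site effect of 6 differed between the years. That share was close to the 0.441% called over all contigs (226 of 51264). Apart from Ddx17 and the list members NHRF1 and TRMT44.2.2, these contigs are named here after their values were seen. For Ddx17 the 2010 effect exceeded that of 2009 by 1.56 (edgeR adjusted p = 0.0347). NHRF1 had 0.64 in 2010 and -1.39 in 2009, a difference of 2.09 (adjusted p = 0.0347), and TRMT44.2.2 had 0.98 and -0.71, a difference of 1.75 (adjusted p = 0.0402). The other 3 were ADHX.4.4, an alcohol dehydrogenase name, with 0.68 and -0.57, DIAP2.1.3 with 0.34 and -0.94, and ppp1r15b, a phosphatase regulator of the stress response, with -0.28 and 0.55. The differences between years were 1.30, 1.33 and -0.79, with adjusted p of 0.0345, 0.0441 and 0.0454.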

How the data were processed

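Kidney RNA of 32 freshwater pearl mussels was sequenced, and the 16 libraries of 2010 are compared here. The authors deposited raw read counts per contig, whole numbers that had not been normalized. Per the submitters' processing notes, BWA 0.7.12 and SAMtools 1.1 were used. Which assembler was used, how contigs got their names, the strand setting and the treatment of ambiguous reads are not given in the sources used here. No contig sequence was used.

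Groups were taken from the labelled site and year, and replicate numbers follow the order of the samples and pair nothing. The tests used edgeR 4.0.16 under R 4.3.3. Low contigs were dropped by filterByExpr (minimum count 10, minimum total 15). Libraries were scaled by TMM, and contigs tested by robust quasi-likelihood fits with Benjamini-Hochberg adjustment over all contigs tested, at 0.05. The standard error is the absolute log2 difference divided by the square root of F. The site effect of 2009 was fitted on its own 16 libraries, and the difference between years on all 32. Shares of counts were compared by exact permutation over animals.

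Contigs named in the text are the 12 called higher and 12 called lower of smallest p averaging 1 CPM or more in whichever group was higher, the 5 of largest change in each direction, superoxide dismutase and ferritin whatever their p, and up to 4 members of smallest p of each of 31 lists. Metallothionein, also in the rule, was not analysed here. Of contigs without a gene name, 2 higher and 2 lower were taken. Called contigs outside this rule, and further contigs under the same names, were added after their values were seen. A few contigs that the rule names are not reported here. The members and lists were chosen with earlier results of these data known. Depth was 64.7 to 190 M counts per library, which limits the precision of contigs under about 1 CPM. Alternatives were RLE and upper-quartile factors, no filter, a filter of 1 CPM in 8 libraries, terms for age class and lane, all 32 libraries in 1 fit, no old animals, edgeR without robust estimation, limma-voom (limma 3.58.1), DESeq2 1.42.0 and each library left out. Without the 4 libraries that lay apart, TMM factors from contigs with a name or locus number, and total counts were added after the data were seen.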

Additional observations from a re-analysis of the deposited data

Results flagged for a closer look

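In 82 groups of 8 animals (the 30 named and 4 unnamed called contigs and 7 library measures), 15 had an animal far from the nearest of the others, where chance gives about 1 in 20. Downstream animal 5 was the far animal for 8 of the 15. It was the highest of its group for PLC at 2.73 CPM, ADRO at 4.98 CPM, D39U1 at 2.16 CPM and furin at 4.91 CPM. It was the lowest for MARH6 at 10.7 CPM, SYB.1.2 at 12.5 CPM and SIGLEC11 at 0.614 CPM. It also had the highest share of counts on running-number contigs downstream, 39.0%. Among upstream animals, SIGLEC11 was highest in animal 8 at 4.39 CPM, DIAP2.3.3 lowest in animal 3 at 11.7 CPM and RAB1A.3.3 lowest in animal 5 at 17.8 CPM. The TMM factor was highest in upstream animal 5, at 1.22, and the sum of haemocyte and digestive enzymes in upstream animal 6, at 144 CPM. Downstream animal 4 was lowest for contig_04422 at 7.58 CPM and highest for contig_06884 at 4.15 CPM.

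The site effect differed between the years, by the interaction term over all 32 libraries, for 8 of the contigs named. Over all contigs 226 of 51264 were called (0.441%). The 2010 effect minus that of 2009 was 1.56 for Ddx17, 2.09 for NHRF1, 1.75 for TRMT44.2.2, 1.30 for ADHX.4.4, 1.33 for DIAP2.1.3 and -0.79 for ppp1r15b. It was 1.55 for contig_04422 and 1.58 for contig_16552, which were chosen for their small p in the 2010 libraries that the term includes. Age class was spread unevenly over the sites in 2009, and its part in these differences was not tested.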

How the results depend on the processing

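Counts near 1487 (1127 higher, 360 lower, 30 named, 16 list members) came from RLE factors, no filter, a 1 CPM filter and edgeR without robust estimation. Upper-quartile factors gave 1860 higher and 204 lower, and an age term 46 named. A lane term gave 190 lower and 8 list members. Age and lane together gave 15 called, 15 higher, 0 lower, 0 named and 0 list members. All 32 libraries in 1 fit gave 84, 83, 1, 0 and 0 in that order. Without old animals the order was 3911, 2699, 1212, 94 and 54. Limma-voom gave 15605, 7961, 7644, 408 and 207, and DESeq2 5189, 3291, 1898, 131 and 68. Without the 4 animals that lay apart it was 4072, 2724, 1348, 75 and 35. Factors from contigs with a name or locus number gave 5710, 5631, 79, 66 and 37. Total counts gave 3609, 3588 and 21, with 27 list members. With single libraries left out the totals ran from 310 to 4283, higher from 268 to 2850, lower from 42 to 1433, named from 4 to 84 and list members from 2 to 43. The lowest was without upstream animal 2 and the highest without downstream animal 5. Without upstream animals 1, 3, 6 and 7 the totals were 432, 353, 404 and 404, and without upstream animal 4 they were 2529. Without downstream animals 2, 3, 6, 7 and 8 they were 482, 395, 502, 436 and 479. The share of called contigs with the same sign in 2009, 43.6%, was 21.5% with an age term and 41.0% with a lane term. The causes were not tested. None of the 30 named contigs was called under every alternative, since 0 passed with age and lane together.

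Signs flipped for SODC.3.3 with the named-contig factors (0.062) and total counts (0.080). SODC.2.3 ran from -0.062 to 0.42 over left-out libraries. SODC.1.3 was -0.025 with an age term, -0.14 without old animals, -0.24 by limma-voom, -0.20 without the 4 animals apart and -0.16 to 0.14 over left-out libraries. LYS1.2.3 was -0.11 by limma-voom. Odc.6.6 was -0.10 by limma-voom and -0.044 without the 4 animals apart. Over left-out libraries Odc.6.6 ran from -0.023 to 0.081. No paired analysis was possible because replicate numbers follow the order of the samples and pair no animals. Low contigs such as furin and PLC had as few as 11 and 29 reads in a single library, which limits their precision.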
